A study of Mus musculus with 16 samples.

Results

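The comparison set 4 libraries of SPOP-mutant mouse prostate organoids against 4 libraries of control organoids, all treated with dihydrotestosterone (DHT), and asked how accessible chromatin differs between the genotypes while androgen is present. The measurement was ATAC-seq, in which a transposase cuts open chromatin, and the values were the authors' peak lists. The peaks of the 8 lists that overlapped by 1 bp or more were merged into 78852 regions, taken from 8 of the 16 libraries of the series, whose 16 lists merge into 86616 regions. A library called a region where one of its peaks overlapped it. The Control_DHT and SPOPmut_DHT groups both received 10 nM DHT for 24 h in organoid medium without mEGF, and the Control_EtOH and SPOPmut_EtOH groups received the solvent ethanol (EtOH) in its place. All 16 libraries carry the mark sgNT, whose meaning the labels do not spell out. The SPOP allele and what drives it are not given in the labels. They also do not say that the 4 libraries of a group are independent cultures or mice, and p-values here reflect only how far these libraries vary, which may be technical.

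SPOP brings substrates to a ubiquitin ligase built on cullin 3, and its mutations in prostate cancer fall in the groove that holds substrates. DHT is the potent androgen that binds the androgen receptor, a nuclear hormone receptor that then binds DNA together with pioneer factors such as FOXA1. Several proteins reported as SPOP substrates are co-activators of that receptor. Prostate epithelium holds luminal cells, which depend on the androgen receptor and make secretory proteins, and basal cells, which carry p63 and basal keratins.

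Regions called in all 4 SPOPmut_DHT libraries and in no Control_DHT library are named gained, and the reverse lost. To show what a separated promoter looks like, 8 promoters overlapped by such a region are printed, chosen after their values were seen. The 4 with a gained region belonged to Krt7 and Krt8 (simple epithelial keratins), Runx1 (a transcription factor of progenitor cells) and Kcne3 (a potassium channel subunit). The 4 with a lost region belonged to Myb and Mef2c (transcription factors), Ptn (the growth factor pleiotrophin) and Steap4 (an androgen-responsive metalloreductase). The sequences are from RefSeq (build GRCm38.p6), 5′ to 3′ on the gene's strand, the 250 bases before the transcript start, and GRCm38 is the assembly also called mm10, which the submitters' processing notes name. Capitals mark matches on either strand to GGGCGG (the GC box), CCGGAA (the ETS core), AGAACA (androgen receptor half-site), TATAAA (the TATA box), TGTGGT (RUNX site), CACGTG (E-box), TGTTTAC (forkhead site) or TGANTCA (AP-1 site), which may overlap each other.
Krt7: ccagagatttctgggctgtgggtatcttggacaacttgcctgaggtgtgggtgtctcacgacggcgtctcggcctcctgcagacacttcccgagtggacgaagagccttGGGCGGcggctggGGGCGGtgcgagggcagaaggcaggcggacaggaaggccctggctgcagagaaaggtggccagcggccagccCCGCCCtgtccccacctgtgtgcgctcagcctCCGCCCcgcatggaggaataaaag
Krt8: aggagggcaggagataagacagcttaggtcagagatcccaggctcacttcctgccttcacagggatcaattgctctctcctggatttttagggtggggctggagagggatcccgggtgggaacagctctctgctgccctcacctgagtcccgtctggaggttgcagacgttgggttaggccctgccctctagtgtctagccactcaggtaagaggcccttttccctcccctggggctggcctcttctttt
Runx1: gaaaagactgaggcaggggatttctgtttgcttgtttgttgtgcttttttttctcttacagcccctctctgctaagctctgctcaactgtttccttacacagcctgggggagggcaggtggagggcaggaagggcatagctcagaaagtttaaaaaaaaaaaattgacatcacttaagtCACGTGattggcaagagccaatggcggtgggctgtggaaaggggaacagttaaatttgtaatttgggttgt
Kcne3: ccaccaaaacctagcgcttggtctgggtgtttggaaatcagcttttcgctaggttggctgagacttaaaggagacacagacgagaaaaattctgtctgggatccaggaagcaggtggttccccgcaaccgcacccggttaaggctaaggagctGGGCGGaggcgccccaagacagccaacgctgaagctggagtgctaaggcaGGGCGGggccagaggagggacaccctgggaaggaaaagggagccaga
Myb: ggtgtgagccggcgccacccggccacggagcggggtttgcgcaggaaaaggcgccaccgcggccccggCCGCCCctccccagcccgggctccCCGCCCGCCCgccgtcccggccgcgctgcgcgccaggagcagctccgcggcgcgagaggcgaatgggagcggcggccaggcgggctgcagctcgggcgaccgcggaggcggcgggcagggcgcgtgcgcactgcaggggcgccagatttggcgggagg
Mef2c: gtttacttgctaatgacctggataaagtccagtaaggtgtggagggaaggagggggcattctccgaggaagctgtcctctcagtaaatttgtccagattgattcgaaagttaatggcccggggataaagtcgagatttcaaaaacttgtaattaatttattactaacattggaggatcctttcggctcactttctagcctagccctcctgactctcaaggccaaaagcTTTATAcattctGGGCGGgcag
Ptn: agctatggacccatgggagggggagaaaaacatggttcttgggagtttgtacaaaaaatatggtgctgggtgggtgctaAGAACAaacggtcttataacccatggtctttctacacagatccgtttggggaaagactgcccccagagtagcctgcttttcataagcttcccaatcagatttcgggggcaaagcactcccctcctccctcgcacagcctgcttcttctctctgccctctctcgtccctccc
Steap4: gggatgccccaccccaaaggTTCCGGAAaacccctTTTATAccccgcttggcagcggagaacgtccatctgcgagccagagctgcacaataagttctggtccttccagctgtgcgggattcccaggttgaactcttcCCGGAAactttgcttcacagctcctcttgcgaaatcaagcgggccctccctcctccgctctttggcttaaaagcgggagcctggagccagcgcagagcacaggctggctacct
The Krt7 stretch (chr15:101412153-101412402, plus strand) held 4 GC boxes and was overlapped by the gained region chr15:101411842-101412624. Krt8 (chr15:102004343-102004592, minus strand) held none of the 8 motifs. Runx1 (chr16:92826075-92826324, minus strand) held 1 E-box, and Kcne3 (chr7:100178433-100178682, plus strand) held 2 GC boxes. Myb (chr10:21160985-21161234, minus strand) held 3 GC boxes and Mef2c (chr13:83523406-83523655, plus strand) 1 GC box and 1 TATA box. Ptn (chr6:36810180-36810429, minus strand) held 1 androgen receptor half-site. Steap4 (chr5:7960222-7960471, plus strand) held 3 matches to the ETS core, 2 of which overlap, and 1 TATA box. In the EtOH libraries the lost regions at Myb, Mef2c, Ptn and Steap4 were called in 4 of 4 Control and 0 of 4 SPOPmut libraries. The gained region at Kcne3 was called in 0 Control and 4 SPOPmut libraries there, that at Krt7 in 0 and 3, and those at Krt8 and Runx1 in 2 and 4.

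Gained regions covered 93 of 21263 promoter windows (82 genes, 250 bases before to 50 after the start) and lost regions 172 windows (149 genes). The median GC content of the 250 bases was 53.6% for windows with a gained region, 58.4% with a lost region, 61.2% for windows in regions called in all 8 libraries and 55.6% over all windows. CpG-poor windows, with 5 or fewer CpG, made up 41.9% of those gained, 24.4% of those lost, 8.56% of those called in all 8 and 37.8% of all windows. The AP-1 site was present in 3.23% of gained, 10.5% of lost and 6.13% of all windows. The androgen receptor half-site was present in 11.8%, 16.3% and 13.7% of them, the forkhead site in 6.45%, 2.91% and 2.62%, and the ETS core in 10.8%, 9.88% and 15%. The GC box was found in 52.7% of gained, 47.1% of lost and 42.6% of all windows, the TATA box in 17.2%, 9.30% and 11.6%, the RUNX site in 15.1%, 11.0% and 12.4%, and the E-box in 5.38%, 5.81% and 6.63%. These shares are descriptions of letters in the windows, with no test.

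The lists held 60847, 58038, 63916 and 61256 peaks in Control_DHT and 61791, 58800, 66532 and 69644 in SPOPmut_DHT. Their means, 61014 ± 2406 and 64192 ± 4832 (SD, n = 4), did not differ beyond the spread (exact permutation test, two-sided, p = 0.257). Read depth is unknown, so no counting interval can be given. Of the regions called in either library of a pair, a fraction of 0.880 to 0.903 was called in both within Control_DHT, 0.859 to 0.942 within SPOPmut_DHT and 0.711 to 0.743 between genotypes. SPOPmut_DHT replicates 3 and 4 were the closest pair, with 515 identical peak intervals against 199 to 316 in the other pairs of the same genotype, and their peaks otherwise differed, so both were kept. Epithelial markers were called in all 8 libraries: Epcam had 6 regions in each Control and 7 in each SPOPmut library, Cdh1 15 to 17 and Krt5 3 in each. The prostate markers Pbsn, Msmb and Tgm4 had no region nearest to them and could not be tested.

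Most accessible regions were shared between the genotypes, and a smaller set was called in one genotype alone. Regions with calls from 2 or more libraries numbered 72544. All 8 libraries called 43997 (60.6%), 5252 were gained (7.24%) and 3459 were lost (4.77%), so 8711 regions (12%) had calls that separated the genotypes, 60.3% of them gained. A further 2033 regions were called in 3 SPOPmut and 0 Control libraries and 1334 in 3 Control and 0 SPOPmut libraries. By Fisher's exact test, two-sided, complete separation has p = 0.0286, the smallest that 4 against 4 can give. With Benjamini-Hochberg adjustment over the regions tested it was 0.238, so 0 regions passed at 0.05 and 8711 had an unadjusted p under 0.05. With each list kept to its 29019 peaks of highest -log10 p, 2559 regions were gained and 2492 lost, so that the gained share was 50.7%.

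**Figure D1:**
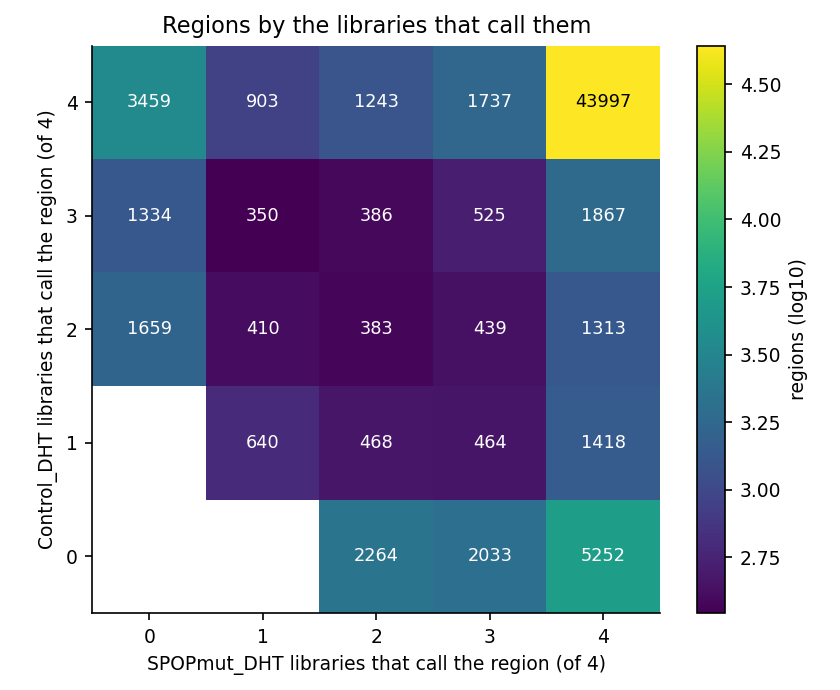
Number of regions by how many of the 4 SPOPmut_DHT libraries (horizontal) and of the 4 Control_DHT libraries (vertical) called them, coloured by log10 of the number; regions called in 1 library are not shown. The corner for all 8 libraries holds 43997 regions, the corner for SPOPmut alone 5252 and that for Control alone 3459, each above its neighbouring cells.

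Gained and lost regions sat low in their lists. The median within-list percentile of their -log10 p was 26.2 for gained and 25.7 for lost regions, against 62.7 for regions called in all 8 libraries. The part of the list above the median held 598 gained (11.4%) and 421 lost regions (12.2%), against 66.6% of those called in all 8. Their median widths were 510 and 493 bp against 922 bp. Gained regions overlapped a promoter window in 81 cases (1.54%) and lost regions in 149 (4.31%), against 18.5% of the regions called in all 8 and 12.2% of all tested. Gene bodies more than 1 kb from either gene end held 48.3% of gained, 43.0% of lost and 42.6% of all tested regions.

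The EtOH libraries, which took no part in choosing these regions, separated in the same direction at these regions. Gained regions were called in 18.8%, 8.47%, 17.7% and 14.6% of cases in the Control_EtOH libraries and in 67.2%, 63.1%, 69.4% and 64.5% in the SPOPmut_EtOH libraries. The groups did not overlap, with means of 14.9 ± 4.64% and 66.1 ± 2.81% (SD, n = 4 each; exact permutation test, two-sided, p = 0.0286, the smallest possible). Lost regions were called in 83.1 ± 4.73% of cases in Control_EtOH and 17.6 ± 4.37% in SPOPmut_EtOH (exact permutation p = 0.0286). Of the gained regions, 1834 (34.9%) were also gained in EtOH and 1418 (27.0%) were called in no EtOH library. Of the lost regions, 1652 (47.8%) were also lost in EtOH and 367 (10.6%) were called in no EtOH library.

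The strongest gained regions lay in or near Abcc5, Runx2, Kcne3 and Btbd3. The region inside Abcc5, a multidrug transporter gene, at chr16:20413653-20414994 had percentiles of 92.3 to 94.9 in the 4 SPOPmut_DHT lists. It was also called in 3 Control_EtOH libraries, so Control organoids lacked its call under DHT but mostly not in EtOH. The region inside Runx2, a skeletal and epithelial transcription factor gene, at chr17:44542408-44543607 reached 90.5 to 91.3. That at Kcne3 (chr7:100178186-100179255) reached 87.4 to 92.3. The region nearest Btbd3 (chr2:137794513-137795422) lay 461616 bp from it and reached 79.9 to 88.6. The Runx2, Kcne3 and Btbd3 regions were called in 0 Control_EtOH and 4 SPOPmut_EtOH libraries. The strongest lost regions lay inside Clstn2, a synaptic calsyntenin gene (chr9:97603572-97604219, percentiles 87.9 to 92.9), and inside Kcnip1, a potassium channel partner gene (chr11:33882635-33883275, 89.8 to 91.3). The next were 5903 bp from Irx2 (chr13:72639467-72640731, 87.1 to 91.8) and 17722 bp from Hes1, a Notch target (chr16:30047179-30048090, 87.1 to 89.6). These 4 lost regions were called in 4 of 4 Control_EtOH and 0 of 4 SPOPmut_EtOH libraries. Over all their regions Hes1 (22, 20, 20 and 21 called regions against 21, 20, 20 and 20) and Irx2 (4 in each against 1, 3, 5 and 5) did not pass the gene test described below.

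Separated regions also came in blocks. A gained region was followed by another gained region along the chromosome in 17.1% of cases and a lost region by another lost one in 17.8%, against the overall shares of 7.24% and 4.77%. By number of regions the largest stretch lay on chromosome 10 at chr10:83729427-84122490, where a run of 10 and a run of 13 lost regions, with 1 other region between them, made 23 of 24 over 393 kb. Its regions were called in 99.0% of cases in Control_EtOH and 6.25% in SPOPmut_EtOH. The nearest genes were 1500009L16Rik, with 5 called regions in each Control and 0 in each SPOPmut library, and the kinase gene Nuak1, with 5 and 3. A block of 11 lost regions spanned 436 kb around Il15 and Zfp330 (chr8:82243456-82679313), with 90.9% and 0% of calls in Control_EtOH and SPOPmut_EtOH. The gained blocks with the most regions were 10 regions over 204 kb at Mecom (chr3:30050812-30255154; 5% against 77.5% in EtOH) and 8 regions over 396 kb around Plcb1 (chr2:134656524-135052449; 6.25% against 75%).

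At the level of genes, SPOPmut_DHT organoids had more called regions at 987 genes and fewer at 481. Regions were assigned to the nearest protein-coding gene body within 100 kb, which placed 91.7% of them, and the called regions of 10664 genes with at least 2 regions were counted in each library. A gene was called where limma's moderated test gave an adjusted p under 0.05 (Benjamini-Hochberg over the 10664 genes) and the group means differed by at least 2 called regions. This holds for 9.26% of genes in the higher and 4.51% in the lower direction. The 4 values of each group did not overlap for 1831 genes in the higher direction (17.2%) and 965 in the lower (9.05%), which included 923 and 437 of the called genes. Of the 1468 called genes, 227 had the same value in all 4 libraries within each group. Their p-values have no measured spread behind them and are not given.

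The balance of higher and lower genes depended on scaling. Of the called genes 67.2% were higher. When each gene's count was taken as a share of its library's called regions, 709 were higher and 647 lower (52.3% higher), and 1175 of the 1468 genes kept their call. When the count that the call rate of the gene's chromosome in that library predicts was subtracted, 629 were higher and 582 lower (51.9%), and 969 kept their call. With lists of equal length 414 were higher and 363 lower, and 363 of the 1468 kept their call while 8 were called in the other direction. Values below are unscaled differences in called regions, given as SPOPmut minus Control with the standard error (SE) of limma's fit, and a call made on neither scaled version (share or chromosome-corrected) is named. Counts for a gene list are given unscaled and then on the share and the chromosome-corrected values, where these differ from the unscaled counts. They stand beside the 9.26% of all genes that were higher and the 4.51% that were lower. That comparison is not matched for the number of regions per gene. A call needs a minimum change in called regions, so a gene with few regions has less room to reach it. The part of region number in the list shares was not tested. Without the minimum change, 3133 of the 10664 genes had a limma adjusted p under 0.05. An unadjusted p under 0.05, counted for 3 lists below, is therefore common over all genes.

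Lists of equal length ended the call at many genes described below. The change there was 1 at Lgr4, Bcl2 and Fkbp5, 0 at Cd24a, Sfrp1, Tead1, Trim24, Kdm2b and Actb, and 0.5 at Sox9, Smarca4 and Ywhaz. It was 1.5 at Dlgap1, 1.75 at Foxa1 and Myc, 0.75 at Runx1 and Notch2, 1.25 at Ets1 and 0.25 at Vgll4. Among the lower genes it was -1 at Trp63 and Macroh2a1, -1.25 at Nfia, Wnt5a and Itpr1, -0.75 at Nrp2, Hsf2bp and Pik3r1, -0.5 at Fancc and -0.25 at Irs2 and Cyp26b1, so none of these was called with the weaker peaks left out.

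Mecom, an oncogenic zinc finger transcription factor gene, showed the largest rise. It had 10, 10, 13 and 13 called regions in the Control libraries and 30, 29, 31 and 30 in the SPOPmut libraries, a difference of 18.5 ± 0.93 (adjusted p = 5.74e-06). The lowest SPOPmut library was above the highest Control library by 16 regions, and 15 of the 31 regions were gained ones. Plcb1, which encodes a phospholipase C that signals downstream of G proteins, had 5, 4, 4 and 4 against 18, 17, 19 and 18 (13.8 ± 0.46, adjusted p = 4.63e-07). Lhfp, a tetraspan membrane protein gene, had 8 in each Control library and 20, 21, 21 and 21 in SPOPmut (12.8 ± 0.25). Pde4d, a cyclic AMP phosphodiesterase gene, had 27, 23, 28 and 27 against 36, 36, 40 and 42 (12.3 ± 1.81, adjusted p = 0.0023). These 4 genes were picked among those whose groups did not overlap, so the lack of overlap is not a finding. Stk3, a Hippo pathway kinase gene, rose from 8, 8, 9 and 8 to 19, 18, 19 and 20 (10.8 ± 0.47). The other genes among the 12 largest rises were Macrod2 (11.5 ± 1.28), Mipol1 (11.3 ± 0.61), Cep128 (11.3 ± 0.83), Dlgap1 (10.8 ± 0.88), Lpp (10.8 ± 2.28), Mid1 (9.75 ± 0.78) and Foxp1 (9.75 ± 2.01), a forkhead transcription factor gene. Lpp was the most variable, with 46, 40, 45 and 45 against 56, 49, 57 and 57. On the chromosome-corrected values Macrod2, on chromosome 2, changed by 2.37 in place of 11.5, Lpp by 6.30 and Stk3 by 7.16. With lists of equal length Foxp1 changed by -1 in place of 9.75.

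Cachd1, which encodes a calcium channel-like membrane protein, showed the largest fall, from 14, 14, 17 and 17 called regions in Control to 0, 0, 1 and 2 in SPOPmut (-14.8 ± 0.96, adjusted p = 2.7e-05). Rerg, a RAS-like growth inhibitor gene, had 13, 14, 15 and 15 against 1 in each SPOPmut library (-13.3 ± 0.46, adjusted p = 5.82e-07), and 12 of its 15 regions were lost ones. Lgr6, a stem cell receptor gene for R-spondins, had 17, 14, 15 and 17 against 6, 4, 6 and 7 (-10.0 ± 0.95). These 3 genes, too, were picked among those whose groups did not overlap, so their separation is not a finding. Atp10b, a phospholipid flippase gene, fell from 12, 9, 14 and 12 to 2, 2, 2 and 3 (-9.5 ± 1.03). Il15, a cytokine gene that supports natural killer and T cells, had 9 called regions in each Control library and 0 in each SPOPmut library, with no spread in either group. Kcnip1 fell from 10, 8, 10 and 9 to 0, 0, 0 and 1. The other large falls were at the zinc transporter gene Slc39a11 (-11.3 ± 1.48), Aopep (-10.0 ± 2.47), the nucleoside transporter gene Slc28a3 (-9.25 ± 0.46), Ldlrad4 and Zbtb7c (-9 each) and the adhesion scaffold gene Nedd9 (-8.75 ± 0.67). Aopep changed by -6.42 on the chromosome-corrected values.

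**Figure D2:**
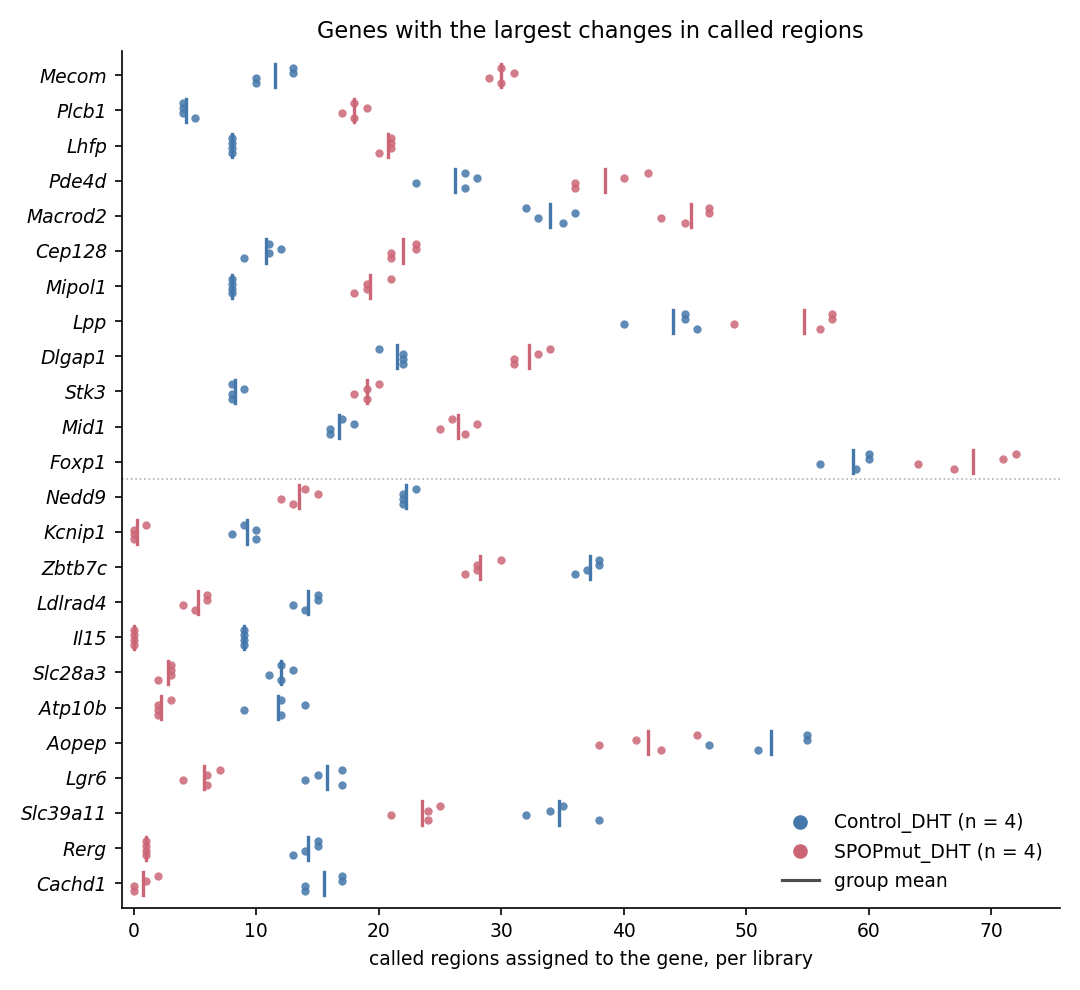
Called regions assigned to a gene (horizontal) in each of the 4 Control_DHT libraries (blue points) and 4 SPOPmut_DHT libraries (red points) for the 12 largest rises (above the dotted line) and the 12 largest falls, with vertical bars at the group means. The 24 genes were chosen among those whose groups do not overlap, so the separation of the points follows from the choice. Mecom moves from 10 to 13 regions to 29 to 31, and Il15 from 9 to 0.

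Some genes had no called region in any library of one genotype and at least 2 in each library of the other. There were 34 without a call in Control_DHT and 57 without one in SPOPmut_DHT. Adam28, a metalloproteinase gene, had 0 in each Control and 6 in each SPOPmut library. Scg2, a secretogranin gene of secretory granules, had 0 in Control and 6, 5, 6 and 6 in SPOPmut, Lrp1b 0 and 5 in each, and Serpine2, a protease inhibitor gene, 0 and 4 in each. Others of this kind were Krt2, Upk1b (a uroplakin), Steap1, Nrg4 (an ERBB4 ligand) and Mgmt (a DNA alkylation repair gene), of which Upk1b, Nrg4 and Mgmt were called on neither scaled version. In the other direction stood Il15, the noradrenaline transporter gene Slc6a2 (8, 7, 9 and 7 against 0), Zfp462 (8, 7, 8 and 7 against 0), Synpr (6 against 0 in each), Xylt1, Plxdc2, Clstn2, Tnfrsf8, Tek, Lhx2, Postn and Tnfsf11, the RANKL gene. Bmp4, a morphogen gene of prostate mesenchyme, had 2 called regions in each Control library and 0 in SPOPmut. These genes were chosen for their values from the whole table, and a call of 0 says that no peak was listed.

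The luminal list had 5 of 15 genes higher (33.3% against 9.26% of all genes) and 1 lower (6.67% against 4.51%), with a median change of 1.5 against 0 over all genes. The other 9 did not pass. The balance turned with scaling, to 2 higher and 1 lower on the share values and 2 higher and 3 lower on the chromosome-corrected values. Krt8 had 1 called region in each Control and 3 in each SPOPmut library, and Krt19, another simple keratin gene, 7 and 9. Cd24a had 3, 3, 4 and 4 against 6 in each (2.5 ± 0.28). Foxa1 had 9, 10, 10 and 10 against 13, 12, 13 and 12 (2.75 ± 0.37, adjusted p = 0.0016). Gata2, a factor that opens androgen receptor sites, fell from 3, 4, 3 and 3 to 0, 0, 2 and 1 (-2.5 ± 0.52). The call at Krt8 held on neither the share nor the chromosome-corrected values, that at Foxa1 was lost on the chromosome-corrected values and that at Krt19 on the share values. Hoxb13, a homeobox gene of prostate identity, had 6, 5, 5 and 6 against 6, 4, 4 and 5 and did not pass.

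Of 11 tested proximal luminal progenitor genes, which mark the part of the prostate ducts near the urethra, 4 were higher (36.4% against 9.26% of all genes) and 1 lower (9.09% against 4.51%), with a median of 1.75. On the share values 2 were higher and 1 lower, and on the chromosome-corrected values 2 and 2. Krt7 rose from 2, 1, 3 and 2 to 9 in each SPOPmut library (7 ± 0.4), with 6 gained regions that include the promoter shown above. Sox9 had 6 in each Control library and 8, 8, 10 and 10 in SPOPmut (3 ± 0.56). Ly6a, the gene of the stem cell antigen Sca-1, had 4 against 6 in each, and Runx1 19, 18, 20 and 19 against 23, 22, 21 and 23 (3.25 ± 0.62). The calls at Ly6a and Runx1 held on neither scaled version. Atp10b was the lower member. The basal list of 15 tested genes held 1 higher gene, the laminin receptor gene Itga6 (13, 13, 13 and 14 against 16, 17, 17 and 17), and 1 lower gene, Trp63, with a median change of 0, and on the chromosome-corrected values 0 higher and 1 lower. Itga6, on chromosome 2, changed by 0.21 on the chromosome-corrected values and was not called there. Trp63, which encodes the basal factor p63, had 29, 27, 30 and 30 against 23, 22, 23 and 21 (-6.75 ± 0.83, adjusted p = 0.001), and the groups stood 4 regions apart. Krt5 had 3 regions in each library, Krt17 2 in each and Krt14 6 in each Control and 7 in each SPOPmut library.

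Of 6 tested secretory genes 2 were higher and none lower, against 1 and 0 on each scaled version. Azgp1, a lipid-mobilising secreted protein gene, had 0, 0, 1 and 1 against 5, 4, 4 and 5 (4 ± 0.4, adjusted p = 0.00031), and the matrix metalloproteinase gene Mmp7 4 against 6 in each. The Mmp7 call was not made on either scaled version, and with lists of equal length Mmp7 changed by -1. Markers of other cell types also had called regions. The called regions of the 7 tested stromal genes summed to 22 to 27 per Control and 16 to 24 per SPOPmut library, with 1 of 7 lower (Zeb1, 3, 3, 5 and 5 against 1 in each). Those of 5 endothelial genes summed to 34 to 36 and 25 to 30, with 1 lower (Tek, 3, 3, 3 and 2 against 0). Those of 4 immune genes summed to 6 to 8 and 11 to 14, with 1 higher (Ptprc, which encodes CD45, 3, 3, 4 and 3 against 7, 7, 8 and 8). Of 4 neuroendocrine genes 1 was higher (Scg2), and the sums were 6 to 9 and 12 to 13. On the chromosome-corrected values 2 of the endothelial genes were lower. The defining markers Vim, Col1a2, Lum, Emcn, Adgre1, Lyz2, Cd74 and Insm1 had no region assigned. The part of these markers in the results was not tested, and in bulk organoids a change in the share of a cell type and a change within cells cannot be told apart.

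Among 27 tested androgen response genes 7 were higher (25.9% against 9.26% of all genes) and 2 lower (7.41% against 4.51%), and the list's median change was 0, as over all genes. On the share values 8 were higher and 6 lower, and on the chromosome-corrected values 9 and 1. Ank, a pyrophosphate transporter gene, rose from 14, 13, 14 and 14 to 22, 21, 22 and 22 (8 ± 0.35). Mboat2, a phospholipid acyltransferase gene, rose from 8, 7, 9 and 6 to 13, 13, 15 and 15 (6.5 ± 0.84). Tmprss2, the androgen-driven serine protease gene, had 25, 26, 24 and 25 against 28, 29, 32 and 33 (5.5 ± 1.22, adjusted p = 0.014). Fkbp5, which encodes a co-chaperone of steroid receptors, had 12, 13, 14 and 12 against 18, 15, 17 and 17 (4 ± 0.77, adjusted p = 0.0077). In these 4 genes each SPOPmut library was above each Control library, as in 923 of the 987 genes called higher. Their chromosome-corrected changes included 4.24 at Ank, 3.10 at Tmprss2 and 2.59 at Fkbp5. The ligase gene Nedd4l (5.25 ± 1.28) and the fatty acid ligase gene Acsl3 (3 ± 0.4) also rose. Zmiz1, a co-regulator of the androgen receptor, fell from 37 in each Control library to 28, 25, 30 and 30 (-8.75 ± 1.15; -5.55 chromosome-corrected), and Steap4 from 3 in each to 1 in each. Zbtb16, an androgen-induced repressor gene, had 10, 7, 8 and 8 against 11, 9, 14 and 14 and did not pass, though it was called higher on both scaled versions. The other 17 members that did not pass included Sgk1 (20, 21, 22 and 20 against 20, 18, 21 and 20) and Tsc22d3 (15, 15, 18 and 17 against 16, 15, 17 and 18).

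At Spop itself (chromosome 11) the values were 8, 6, 7 and 7 in Control and 7 in each SPOPmut library. Peak calls at the gene do not test the labelled mutation. Of the 6 tested ligase genes limma called 0, and 0 were called on either scaled version: Rbx1 had 7 and Keap1 3 in each library. An unadjusted limma p under 0.05, common over all genes, was found at 2 of the 6. Of 22 reported SPOP substrates 3 were higher and 1 lower (13.6% and 4.55%, near the shares over all genes), with a median of 0.5. On the share values 2 were higher and 2 lower, and on the chromosome-corrected values 1 and 2. Myc had 16, 14, 15 and 14 against 19 in each (4.25 ± 0.47), Ncoa3, a receptor co-activator gene, 4, 4, 5 and 5 against 8, 8, 7 and 8 (3.25 ± 0.37), and Trim24, a chromatin reader gene, 5, 3, 5 and 4 against 6, 6, 7 and 7 (2.25 ± 0.54). Macroh2a1, a histone variant gene, fell from 15, 14, 15 and 14 to 11, 11, 12 and 12 (-3 ± 0.4). Myc and Ncoa3 lie on chromosomes 15 and 2, and on the chromosome-corrected values they changed by 1.0 and 1.79 and were not called.

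Steroid receptors and their partner factors changed in both directions, with 6 of 24 higher and 4 lower and a median change of -0.13. Beside Foxa1 and Ncoa3, the higher genes included Grhl2, an epithelial pioneer factor gene (22, 24, 24 and 22 against 26, 27, 26 and 28, called on neither scaled version), and the co-activator genes Ncoa1 (3 ± 0.88) and Ep300 (2, 2, 2 and 2 against 5, 3, 5 and 5). Grhl2 lies on chromosome 15, and its chromosome-corrected change was -1.38, the other sign. The lower genes were Gata2 and Klf4 (-2.5 each), Nfia (-4.25 ± 1.07) and Nfib (-4.5 ± 1.08). Nfib and Nfia encode nuclear factor I proteins. Nfib had 18, 16, 18 and 16 against 12, 10, 14 and 14. Its groups did not overlap, as in 437 of the 481 genes called lower. On the share values 4 genes of the list were higher and 4 lower, and on the chromosome-corrected values 1 and 5. Ep300, on chromosome 15, changed by 1.65 there and was not called.

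Of 30 epithelial transcription factor genes 10 were higher and 3 lower, with a median change of 0.63 (7 and 4 on the share values, 7 and 3 chromosome-corrected), and Mecom, Grhl2, Runx1 and Sox9 were among the higher ones. Meis2, a homeobox gene, had 9, 9, 11 and 10 against 19, 16, 18 and 19 (8.25 ± 0.83). Sox6, a SoxD factor gene, had 27, 26, 26 and 28 against 31, 32, 37 and 38 (7.75 ± 1.76, adjusted p = 0.016), and its values in SPOPmut replicates 3 and 4 were above those in the other SPOPmut libraries. With lists of equal length Sox6 changed by -4.25. The chromosome-corrected changes of Meis2 and Sox6 were 4.78 and 3.67. Runx2 (4 ± 0.89, called on neither scaled version) and Tfap2a (13 in each against 15, 16, 16 and 16) rose too. Grhl3 (-2.75), Klf4 and Sox4 (-2) were lower. In the ETS list Ets1 was higher (2, called on neither scaled version) and Ets2 lower (-2.25) of 13, but 0 were higher and 3 lower on the share values and 0 and 4 on the chromosome-corrected values. Ets2 changed by 1.5 when regions were assigned within 25 kb. In the AP-1 list 1 of 16 was higher, the phosphatase gene Dusp1 (8, 8, 7 and 8 against 10 in each), which was called on neither scaled version and changed by -1 with lists of equal length. On each scaled version 0 genes of that list were higher and 1 was lower.

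In the Wnt list 5 of 27 were higher (18.5% against 9.26% of all genes) and 2 lower (7.41% against 4.51%). The balance turned with scaling, to 2 higher and 4 lower on the share values and 3 and 3 on the chromosome-corrected values. Lgr4, a receptor gene for R-spondins, had 7 in each Control and 16 in each SPOPmut library, and Ctnnb1, the β-catenin gene, 10, 11, 13 and 12 against 15, 14, 16 and 16 (3.75 ± 0.78; 2.36 chromosome-corrected). The ligand antagonist gene Sfrp1 fell from 10 in each to 6, 6, 6 and 7, and the ligand gene Wnt5a from 10 in each to 7, 8, 7 and 7. In the Hippo list 4 of 18 were higher and 1 lower (3 and 1 on both scaled versions). Its kinase genes Stk3 and Stk4 (2, 2, 3 and 2 against 5, 4, 5 and 5) and its nuclear factor genes Tead1 (4.5 ± 0.77; 2.62 chromosome-corrected) and Vgll4 (14 against 16 in each) rose, and the target gene Ccn1 fell (11 against 9 in each).

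In the TGF-beta and BMP list 4 of 27 were higher and 1 lower (14.8% and 3.70%; 4 and 2 on the share values, 3 and 0 chromosome-corrected). Smad3, a signal transducer gene, had 24, 22, 26 and 27 against 31, 31, 34 and 34 (7.75 ± 1.37; 5.04 chromosome-corrected), and the activin inhibitor gene Fst 5, 4, 4 and 4 against 8, 7, 8 and 9. Bmpr1b, a receptor gene, rose by 3.25 ± 0.37, and changed by -0.5 with lists of equal length. The ligand gene Bmp2 had 10, 8, 12 and 10 against 13, 12, 16 and 16, so the groups touched (adjusted p = 0.048) and the chromosome-corrected change of 1.33 was not called, while Bmp4 was the lower member. In the retinoic acid list 2 of 15 were lower. The receptor gene Rarb fell from 20 in each to 13, 12, 13 and 14 (-7 ± 0.4). The retinoic acid hydroxylase gene Cyp26b1 fell by 2, and changed by 0.25 when regions were assigned within 25 kb. Of 15 Notch genes 1 was higher (Notch2, 2.75 ± 0.67, called on neither scaled version), while 1 was lower on the share values and 3 on the chromosome-corrected values. Of 10 Hedgehog genes limma called 0, and 1 was called lower on the share values. An unadjusted limma p under 0.05, common over all genes, was found at 4 of the 10.

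Cyclic AMP and phospholipase C genes held 5 higher and 3 lower of 29 (17.2% and 10.3%). The balance turned with scaling, to 3 higher and 5 lower on the share values and 3 and 4 on the chromosome-corrected values. Beside Plcb1 and Pde4d, Pde4b rose from 7, 7, 8 and 8 to 11, 11, 13 and 13 (-1.75 with lists of equal length), and the calcium release channel gene Itpr1 fell from 31, 31, 34 and 34 to 26, 23, 27 and 27 (-6.75 ± 1.25). In the PI3K list 3 of 25 were higher and 4 lower (1 and 5 on the share values, 3 and 4 chromosome-corrected). The insulin receptor substrate genes went opposite ways: Irs1 had 5, 5, 5 and 6 against 9 in each (3.75 ± 0.24) and Irs2 15, 14, 16 and 15 against 8, 9, 10 and 10 (-5.75 ± 0.61). Pik3r1 (-3.25 ± 0.67) and Insr (-2.5 ± 0.28) were also lower. In the EGF receptor list 1 of 25 was higher and 2 lower (0 and 2 on the share values, 2 and 1 chromosome-corrected). Egfr had 25, 26, 26 and 25 against 20, 21, 23 and 24 (-3.5 ± 0.93, adjusted p = 0.031).

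Cell cycle genes gave 0 calls by limma in 18 tested, and 1 was called lower on each scaled version. An unadjusted limma p under 0.05, common over all genes, was found at 9 of the 18, with changes of less than 2 regions. Over the 18 genes the change was below 0 in 11 and above 0 in 3, with a median of -0.63. Mki67, a proliferation marker, had 7, 7, 7 and 6 against 5, 5, 5 and 6. Of 13 DNA repair genes 1 was higher (Rad51b, 65, 61, 66 and 63 against 72, 69, 73 and 75; 3.19 chromosome-corrected in place of 8.5) and 1 lower (Fancc, -4.25 ± 0.92). Of 26 chromatin regulators 3 were higher (Hdac4, Kdm2b and Smarca4, by 3.25, 3 and 2, the last called on neither scaled version) and 1 lower (Hdac9, -2.25), against 2 and 2 on the share values and 1 and 2 on the chromosome-corrected values. Hdac4 changed by 1.24 on the latter and was not called. In the interferon and inflammation list 2 of 22 were higher (among them Relb, by 2, called on neither scaled version) and 1 lower (Il15). These are 9.09% and 4.55%, near the shares over all genes, and on each scaled version 0 were higher and 1 lower. The housekeeping list had 2 of 11 higher, Ywhaz (27, 28, 30 and 27 against 34, 36, 36 and 38) and Actb (6 in each against 9, 8, 9 and 9). That share is 18.2%, beside 9.26% of all genes. Ywhaz lies on chromosome 15, and its chromosome-corrected change was 1.51, not called. The housekeeping list had 2 higher genes on the share values and 1 on the chromosome-corrected values.

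**Figure D3:**
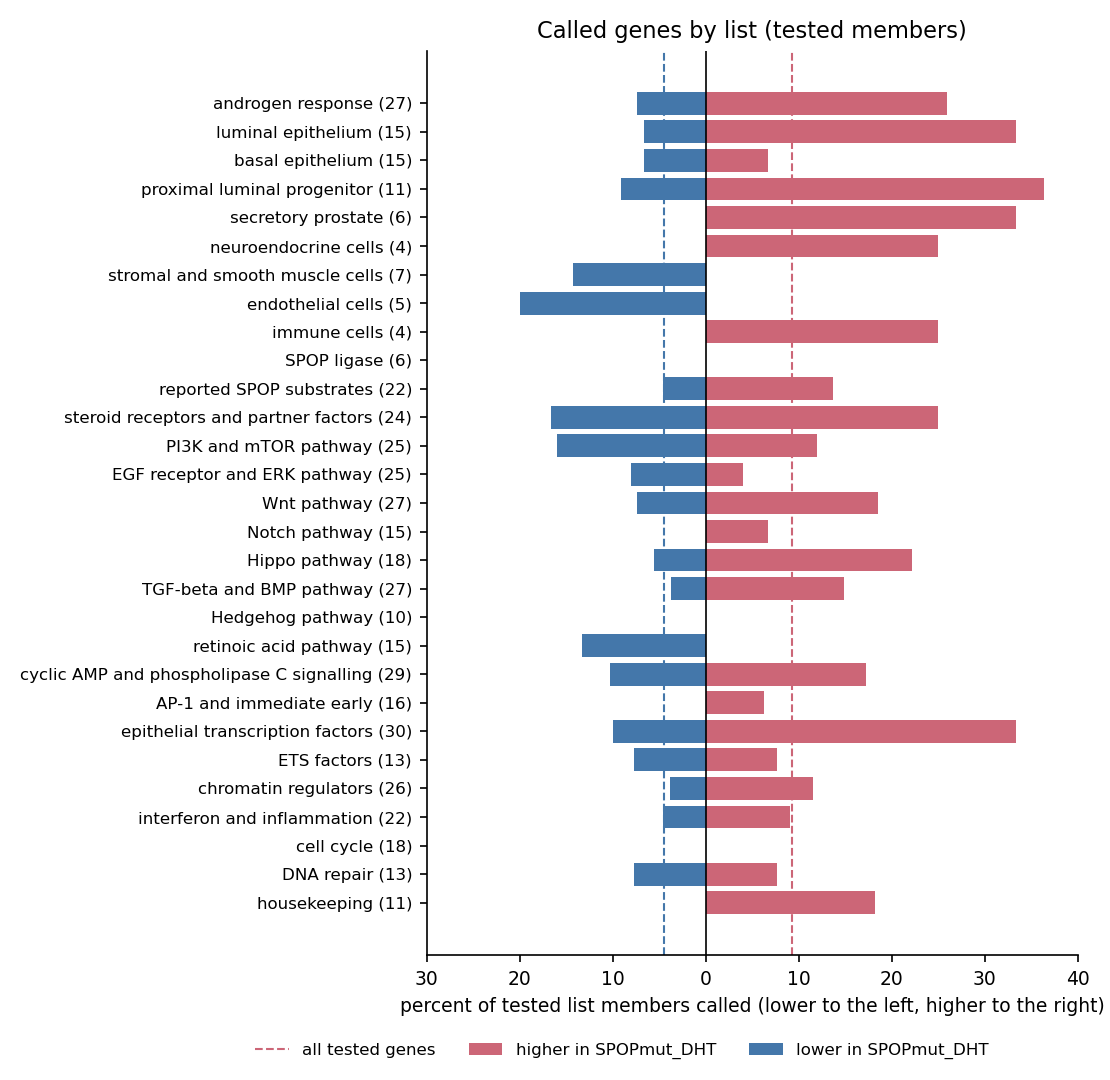
Percent of the tested members of each of 29 gene lists (tested number in brackets) that were called higher (red, to the right) or lower (blue, to the left) in SPOPmut_DHT; dashed lines mark the shares over all tested genes, 9.26% and 4.51%. Bars show unscaled calls, and list members were chosen with earlier results of these data known. The shares over all tested genes are not matched to the lists for the number of regions per gene. Proximal progenitor genes reach 36.4% higher and luminal, secretory and epithelial transcription factor genes 33.3%. On the chromosome-corrected values these lists had 2, 2, 1 and 7 genes higher and 2, 3, 0 and 3 lower, in that order. The cell cycle, Hedgehog and ligase lists have no called gene.

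The chromosomes' shares of called regions shifted with the genotype. Of 21 chromosomes 20 had shares of the library's called regions that separated the groups (exact permutation test, two-sided, p = 0.0286, adjusted p = 0.03 over the chromosomes), 10 higher and 10 lower. Shares are parts of a whole, so a rise on some chromosomes lowers the share of others. The lower ones include Y, with only 17 tested regions, and chromosome 18, which had 149 gained and 112 lost regions. Chromosome 2 took 7.03 ± 0.06% of the called regions in Control and 8.40 ± 0.07% in SPOPmut (19.4% more), and chromosome 15 4.27 ± 0.02% and 5.01 ± 0.07% (17.3% more). The shares of chromosomes 14, 13 and 8 changed by -14.5%, -11.9% and -9.03%. On chromosome 2 156 of 860 tested genes were higher (18.1%) and 13 lower (1.51%), and on chromosome 15 96 of 500 higher (19.2%) and 7 lower (1.4%). On chromosome 14 17 of 344 were higher (4.94%) and 31 lower (9.01%), and on chromosome 13 19 of 404 higher (4.70%) and 35 lower (8.66%). Plcb1, Macrod2, Lgr4, Meis2 and Ncoa3 lie on chromosome 2, and Krt7, Krt8, Stk3, Ank, Myc, Grhl2 and Ywhaz on chromosome 15. The part of the chromosome shifts in the gene changes was not tested beyond the chromosome-corrected values given.

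**Figure D4:**
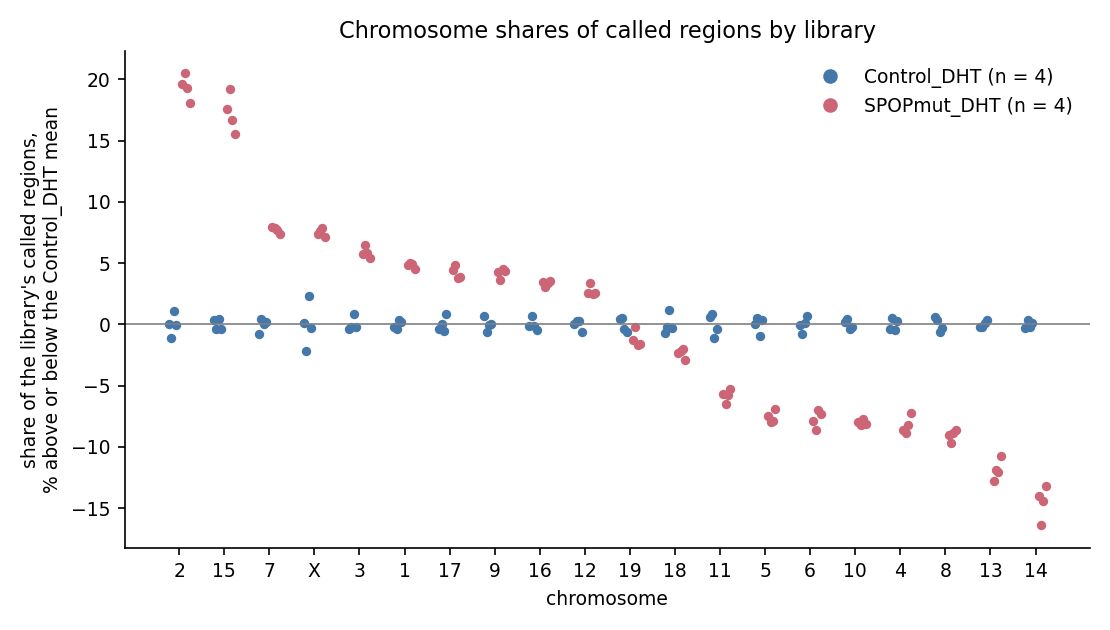
Share of a library's called regions on each chromosome except Y, as percent above or below the Control_DHT mean, for the 4 Control_DHT (blue) and 4 SPOPmut_DHT libraries (red). The SPOPmut points lie together from 19.4% above on chromosome 2 to 14.5% below on chromosome 14, and overlap the Control points on chromosome 19.

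By location the difference was small. Regions in gene bodies made up 41.1 ± 0.20% of called regions in Control_DHT and 42.0 ± 0.33% in SPOPmut_DHT (exact permutation p = 0.0286, adjusted p = 0.114 over 4 classes). Regions within 1 kb of a gene end made up 18.4 ± 0.42% and 17.7 ± 0.69% (exact permutation p = 0.2), and those on promoter windows 14.9 ± 0.46% and 14.1 ± 0.72% (exact permutation p = 0.171).

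Most genes called under DHT differed in the same direction in EtOH. Of the 1468 called genes 1369 (93.3%) had the same sign in the EtOH libraries, 48 the opposite sign and 51 a difference of 0, in libraries that share no sample with the DHT groups. The median change of the higher genes was 3 regions under DHT and 2 in EtOH, and that of the lower genes -2.75 and -2.25. The genes were chosen for their change under DHT, which favours larger DHT values, so these medians do not compare the size of the effect. A test of the difference between the DHT and EtOH genotype effects (limma interaction over 16 libraries and 11212 genes, with the same thresholds) called 188 genes in the higher direction (1.68%) and 54 in the lower (0.482%), 152 of them among the 1468. The higher share of these calls was 77.7%, against 55.3% on the chromosome-corrected and 56.4% on the share values.

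Among the called genes Lhfp showed the largest difference. Foxp1 had a larger one, 10 ± 3.23, that did not pass (adjusted p = 0.08). On the chromosome-corrected values the Foxp1 difference was 7.49 and passed (limma interaction, adjusted p = 0.00029). Lhfp had 8 regions in each Control_DHT library against 20, 21, 21 and 21, and 9, 9, 10 and 9 in Control_EtOH against 13, 13, 13 and 12, so the genotype effect was 12.8 under DHT and 3.5 in EtOH. The difference of 9.25 ± 0.43 had an adjusted p of 1.2e-09. Kcne4, a potassium channel subunit gene, had 1 region in each Control_DHT and 10, 8, 11 and 11 in SPOPmut_DHT, but 2 in each Control_EtOH and 5, 4, 5 and 5 in SPOPmut_EtOH (6.25 ± 0.73 more under DHT). Sox6 had 24 in each SPOPmut_EtOH library against 23, 24, 23 and 22, a genotype effect of 1 (difference 6.75 ± 1.83, adjusted p = 0.048). Bcl2, an anti-apoptotic gene, differed by 6.25 ± 1.26. Mmp7 changed sign: SPOPmut had 2 regions more under DHT (6 against 4) and 2 fewer in EtOH (2 against 4), in every library of each group.

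Trp63 had fewer called regions in SPOPmut than in Control under DHT, but hardly fewer in EtOH. In the merge of all 16 lists it had 28, 26, 30 and 29 regions in Control_DHT against 23, 22, 23 and 21, and 23, 20, 22 and 21 in Control_EtOH against 21, 19, 21 and 20. The genotype effects were -6 and -1.25, and their difference was -4.75 ± 1.25 (adjusted p = 0.041). Both genotypes had more regions under DHT than in EtOH, with means of 28.25 against 21.5 in Control and 22.25 against 20.25 in SPOPmut. Nrp2, a neuropilin receptor gene, had a genotype effect of -4.25 under DHT and 0.5 in EtOH (difference -4.75 ± 1.24). Bnc1, a basal epithelial zinc finger gene, had a genotype effect of -1.75 under DHT and 4.25 in EtOH, and Hsf2bp -3 and 3. Azgp1 and Irs1 rose more under DHT, by 4 and 3.75 against 1 each in EtOH. The interaction was not called at Spop, Krt5 or Foxa1 (1.25 ± 0.47). It was not run with lists of equal length, which ended the Trp63 call under DHT.

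**Figure D5:**
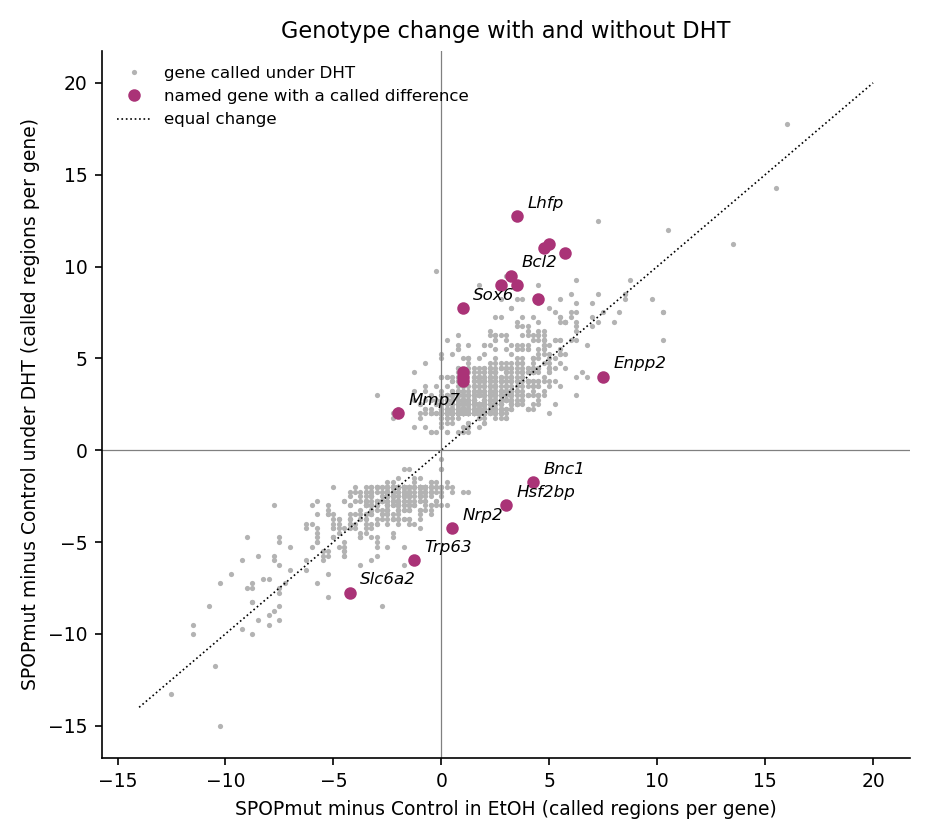
Change in called regions per gene (SPOPmut minus Control) in EtOH (horizontal) and under DHT (vertical) for the genes called under DHT (grey) and named genes whose difference between treatments was called (purple); the dotted line marks equal change. Most grey points share their sign on both axes; Lhfp stands at 12.8 under DHT against 3.5 in EtOH, and Trp63 at -6 against -1.25.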

How the data were processed

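Mouse prostate organoids were profiled by ATAC-seq in 16 libraries, 4 groups of 4. Per the submitters' processing notes, the authors used the mm10 genome, Bowtie2 2.3.4.1, SAMtools 1.8 and Genrich (version not given in the sources used here). The authors deposited 1 peak list per library, in the narrowPeak layout without a header, with a signal value, a -log10 p and a display score for each peak. The deposited signal and score columns entered no test. The deposited -log10 p served only to rank peaks within a list and to shorten lists. Pooled signal tracks were not used. Read depth is unknown, so list length stands in its place.

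Peaks overlapping by 1 bp were merged, and regions called in at least 2 libraries were tested by Fisher's exact test (SciPy 1.17.1). Called regions per gene (nearest RefSeq protein-coding gene within 100 kb, at least 2 regions) were fitted with limma 3.58.1 (trend) in R 4.3.3. A minimum change of 2 regions was added to the call after a check on simulated data, because genes without spread passed too easily. Shares were compared by exact permutation tests. Named genes were the 12 largest changes per direction among genes with an adjusted p under 0.05 and groups that do not overlap. Also named were the 6 largest interactions per direction and up to 4 called members of each of 29 lists. The strongest regions, the longest runs and a short constant set completed the choice. Other genes named, such as those without a call in one genotype, further list members and the printed promoters, were chosen after their values were seen. Some genes that the rule names are not reported here. The members and lists were chosen with earlier results of these data known. Alternatives covered merging, list length, scaling, gene assignment, filters, the test, a replicate block and leaving out each library.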

Additional observations from a re-analysis of the deposited data

Results flagged for a closer look

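In 248 groups of 4 libraries, 4 values were flagged as apart from the other 3 of their group by Dixon's test. Genes were flagged only where their values also spanned at least 4 called regions. The count is therefore not comparable with the 1 group in 20 that chance gives by that test alone. SPOPmut_DHT replicate 2 had 4.84% of its called regions on chromosome 12, against 4.79% to 4.80% in the other 3. Control_EtOH replicate 2 called 76.1% of the lost regions, against 84.8% to 86.0%. At Lpp both second replicates were low: Control_DHT replicate 2 had 40 called regions against 45 to 46, and SPOPmut_DHT replicate 2 had 49 against 56 to 57. These DHT libraries also had the shortest lists of their groups, 58038 and 58800 peaks.

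The genotype effect under DHT differed from that in EtOH by the limma interaction test at 19 named genes. The difference in called regions was 9.25 for Lhfp, 6.75 for Sox6, 6.25 for Mipol1, Dlgap1, Kcne4 and Bcl2, 5.5 for Mid1, 5 for Stk3, 4 for Mmp7, 3.75 for Meis2, 3.25 for Ptprc, 3 for Azgp1 and 2.75 for Irs1. It was -6 for Bnc1 and Hsf2bp, -4.75 for Trp63 and Nrp2 and -3.5 for Slc6a2 and Enpp2. Enpp2, the autotaxin gene, had genotype effects of 4 under DHT and 7.5 in EtOH, and Slc6a2 of -7.75 and -4.25. At Mid1, on the X chromosome, the chromosome-corrected interaction had an adjusted p of 0.102.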

How the results depend on the processing

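With lists of equal length 5051 regions separated (2559 gained), and 777 genes were called (414 higher). A looser rule (at least 3 libraries against at most 1, a difference of at least 3) gave 14399 regions (8703 gained, 5696 lost). After chromosome correction 629 genes were called higher. Groups that do not overlap gave 2796 genes (1831 higher, 965 lower). Without the minimum change, an alternative added after seeing the data, 3133 genes passed (2041 higher, 1092 lower). For the interaction, 148 genes were lower after chromosome correction and 137 on the share values, and 692 passed without the minimum change (503 higher, 189 lower).

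Leaving out 1 library gave 9121 to 10021 separated regions (5319 to 6532 gained, 3489 to 4097 lost), 1285 to 1486 called genes (835 to 1101 higher, 385 to 495 lower) and 194 to 315 interaction genes (139 to 273 higher, 40 to 79 lower). The difference in list length was 1360 to 4975 peaks. The gene body share differed by 0.730 to 0.966 percentage points, the gene end share by -0.996 to -0.489 and the share outside genes by -0.242 to 0.0304, positive without SPOPmut_DHT replicate 2. In EtOH the gained difference was 49.0 to 52.5 points and the lost one -67.9 to -64.2, and 20 to 21 chromosomes separated.

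Between genotypes under DHT, libraries of the same replicate number had correlations of 0.00848, 0.0523, 0.0146 and 0.00162. Those of different numbers had -0.0705 to 0.0688. Replicate 2 had the shortest list in each of the 4 groups (58038, 58800, 57245 and 60661 peaks). Whether libraries of 1 replicate number share a factor was not tested. With a replicate block 1364 genes (917 higher, 447 lower) and 271 interactions (210 higher, 61 lower) were called. Of 92 called named genes 35 kept their call in every alternative run that tested them, with the exact permutation test left aside. A gene missing from a run was not counted as losing its call there. With lists of equal length the sign turned at Foxp1 (-1), Sox6 (-4.25), Mmp7 (-1), Bmpr1b (-0.5), Pde4b (-1.75) and Dusp1 (-1), and after chromosome correction at Grhl2 (-1.38). Assigning regions within 25 kb or to gene bodies with 10 kb on either side turned Cyp26b1 (0.25 and 0.75) and Ets2 (1.5 and 0.5). The cause was not tested.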
